A study of Homo sapiens with 6 samples.

Results

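The 10 genes described here carry TGF-beta signalling: the ligands TGFB1 and TGFB2, the receptors TGFBR1, TGFBR2 and TGFBR3, the intracellular messengers SMAD3 and SMAD7, and the extracellular proteins LTBP2, THBS1 and TGFBI. They were chosen by gene symbol, with earlier results of these data known. Each was found on 1 line among the 24462 distinct symbols of the count files. All 10 passed the filter on low counts. The 6 RNA-seq libraries are labelled as made from MDA-MB-231, a human triple-negative breast cancer cell line, in 3 groups of 2. By their labels, the ELK3-labelled libraries (ELK3KD-231 +ELK3) are from cells with a stable retroviral short-hairpin knockdown of ELK3, an ETS-family transcription factor. These cells were collected 48 h after transfection with 1 µg of the plasmid pLenti-cMyc-DDK-ELK3. The vector-labelled libraries (ELK3KD-231 +CV) are labelled as the same knockdown cells 48 h after 1 µg of the empty pLenti-cMyc-DDK plasmid. The ELK3 counts of both groups go against these labels, as given below. The control libraries are from MDA-MB-231 cells infected with a control retrovirus, for which the labels give no plasmid, dose or time. Contrasts with the controls therefore combine the labelled knockdown with plasmid transfection, and these cannot be told apart. Whether a knockdown line is 1 clone or a pool, and whether replicates are separate cultures, is not stated, so p-values may measure technical spread only.

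TGF-beta is secreted as a latent complex tethered to the matrix by latent TGF-beta binding proteins and is released by integrins, proteases or thrombospondin. Active ligand joins type II and type I receptor kinases, which phosphorylate SMAD2 and SMAD3. These enter the nucleus with SMAD4 and switch on target genes, among them SMAD7, an inhibitor that closes the loop. In breast epithelium the pathway restrains growth, and in invasive breast cancer cells such as MDA-MB-231 it is known for driving motility, matrix production and metastasis.

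Levels are counts per 1000000 (CPM) scaled by TMM, and each adjusted p is from edgeR's quasi-likelihood test with Benjamini-Hochberg adjustment over all 15386 genes tested. A gene was called at an adjusted p below 0.05, and ± after a log2 fold change is its SE. Library totals ran from 4884483 to 9131214 counts. The limit a count of 0 allows, 3 counts, therefore stood for 0.329 to 0.614 CPM of these totals, before TMM scaling. ELK3 went against the labels. It had 20.4 and 22.6 CPM in the ELK3-labelled libraries, 759 and 697 CPM in the vector-labelled libraries and 129 and 124 CPM in the controls. In the count files the ELK3-labelled columns are headed KD and the vector-labelled columns KD+E. The groups keep their labels below, as "ELK3-labelled" and "vector-labelled", and no direction is tied to the presence of ELK3. The summed level of 28 genes typical of MDA-MB-231 was 1245 to 1278 CPM in the ELK3-labelled libraries, 1388 to 1438 CPM in the vector-labelled libraries and 10566 to 10613 CPM in the controls, with none of the 28 at 0 in any group. For 20 genes typical of the embryonic kidney line HEK293, the sums were 1741 to 1770 CPM in the ELK3-labelled libraries, 1144 to 1198 CPM in the vector-labelled libraries and 297 to 305 CPM in the controls, where PAX2 and STMN2 were at 0. Fibroblast markers, 12 genes, summed to 196 to 216 CPM in the ELK3-labelled, 184 to 192 CPM in the vector-labelled and 73.2 to 75.7 CPM in the control libraries. Of the 9 tested, 5 were called higher and 0 lower in vector-labelled against control libraries, beside 37.0% and 35.3% of all genes. In ELK3-labelled against control libraries, 5 were higher and 1, DCN, lower, beside 31.8% and 30.8%. COL1A1, COL1A2, ACTA2 and DCN are also counted in the pathway lists below. The marker and pathway lists were chosen with earlier results of these data known, so their counts are descriptive only.

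Against the controls, the vector-labelled libraries had lower TGFB2, TGFBR1, TGFBR2, SMAD3, TGFBI, THBS1 and LTBP2, and no gene of the 10 was called higher. THBS1 fell the most, by 4.03 on the log2 scale, and TGFBR1 the least, by 0.48. Of all genes tested, 72.3% were called in either direction, so 7 calls among the 10 are near the background. All 7 were lower, beside 35.3% of all genes called lower and 37.0% called higher. Lower by at least 4-fold were 5 of the 10, beside 5.95% of all genes. The median log2 fold change was -1.53 over the 10 genes and 0.05 over all genes tested. Since the 10 were chosen with earlier results of these data known, these comparisons with all genes are descriptive only. In the same contrast 26 of the 27 tested MDA-MB-231-typical genes were called lower and 15 of the 18 tested HEK293-typical genes higher. These marker lists were also chosen with earlier results known, so these counts are descriptive too. A difference between cell populations and the labelled treatment cannot be told apart here, and in bulk RNA fewer cells of a type and less RNA per cell cannot be told apart either.

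Between the ELK3-labelled and the vector-labelled libraries the 10 genes moved less and in both directions. TGFBR3, SMAD3 and SMAD7 were called higher, and TGFB2, TGFBI and LTBP2 were called lower. The 6 calls among the 10 compare with 59.6% of all genes tested, and the 3 higher and 3 lower calls with 30.0% and 29.6%, all near the background. None of the 10 was called at a 2-fold difference, beside 10.4% of all genes higher and 12.4% lower by that much, and their median log2 fold change was -0.01, against -0.02 for all genes. The count was 3 with DESeq2 and 3 without the second ELK3-labelled library. In this contrast all 15 tested liver transcripts, present in every library, were called lower, with a median log2 fold change of -0.33, and 6 of 13 tested lymphocyte transcripts were lower and 0 higher. The part of these in the members' differences was not tested.

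Against the controls, the ELK3-labelled libraries again had lower TGFB2, TGFBR1, TGFBR2, SMAD3, TGFBI, THBS1 and LTBP2, with TGFBR3 and SMAD7 higher. The 9 calls among the 10 compare with 62.6% of all genes tested, the 7 lower calls with 30.8% and the 2 higher calls with 31.8%. Of the 10 genes, 5 were lower by at least 4-fold, beside 4.45% of all genes, and the median log2 fold change was -1.94, against 0.02 for all genes. The comparisons with all genes are descriptive here too, given how the 10 were chosen. Both contrasts with the controls use the same 2 control libraries, so their agreement is partly built in. Here 26 of 27 MDA-MB-231-typical genes were lower and 15 of 18 HEK293-typical genes higher, with the same limit. All 15 tested liver transcripts were lower here too, with a median log2 fold change of -0.28, as were 5 of 13 tested lymphocyte transcripts, with 0 higher; their part in the result was not tested.

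**Figure D1:**
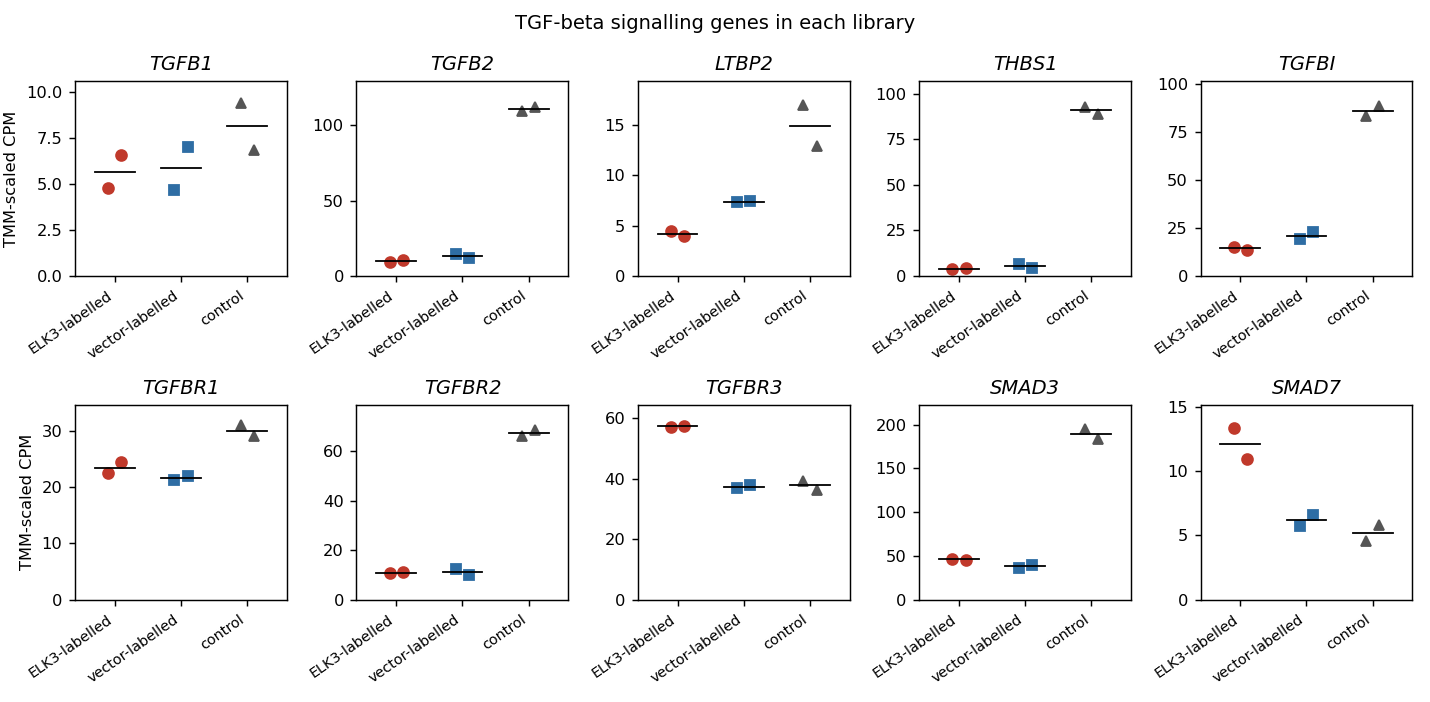
Level of each of the 10 genes in TMM-scaled CPM (vertical axes, linear and starting at 0) in the ELK3-labelled, vector-labelled and control libraries; each point is a library and each bar the mean of 2. THBS1, TGFB2, TGFBR2, SMAD3 and TGFBI stand high in both controls only, while TGFBR3 and SMAD7 stand highest in both ELK3-labelled libraries.

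**Figure D2:**
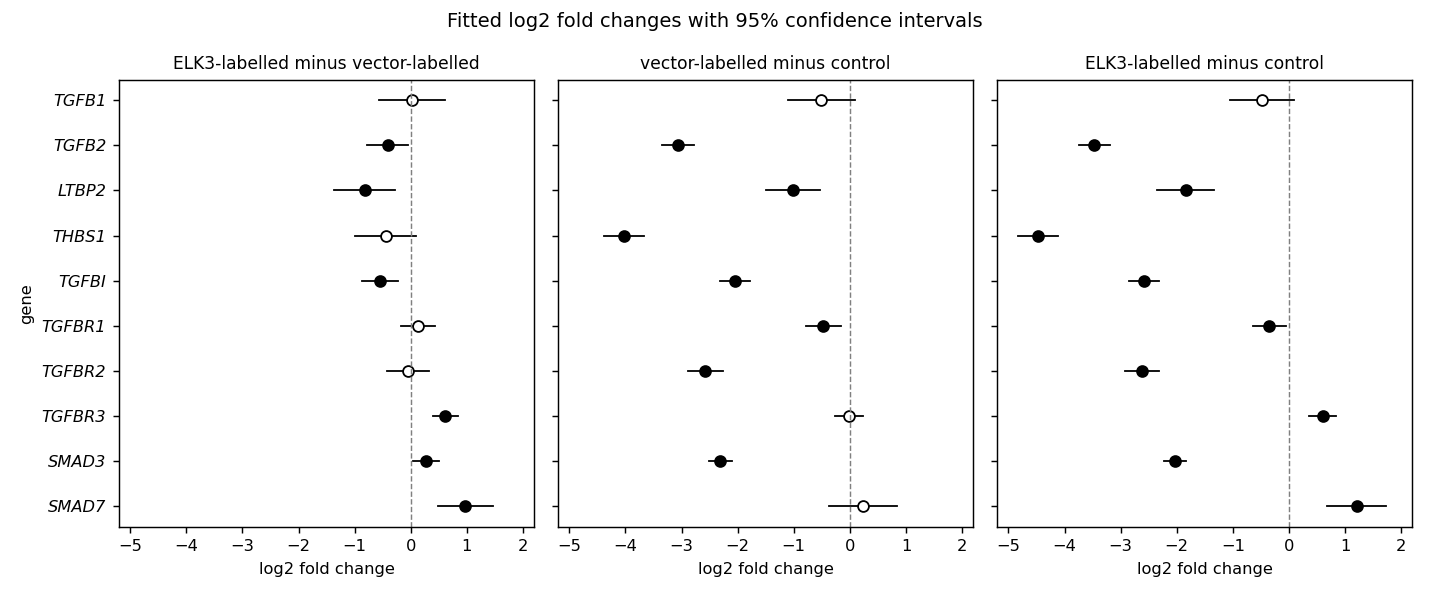
Log2 fold changes (horizontal axes) of the 10 genes in the 3 contrasts, with 95% confidence intervals as lines; filled points were called at an adjusted p below 0.05 and open points were not. The middle and right panels hold 7 filled points left of 0 each, and the left panel holds 3 on each side.

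The ligands come first. TGFB2 encodes a TGF-beta isoform that binds type II receptors well only with the help of the co-receptor betaglycan. It had 9.06 and 10.6 CPM in the ELK3-labelled libraries, 14.5 and 11.6 CPM in the vector-labelled libraries and 109 and 112 CPM in the controls. Both controls lay far above all 4 plasmid libraries, and the ELK3-labelled pair lay below the vector-labelled pair with no overlap. The log2 fold change against the controls was -3.47 ± 0.14 in the ELK3-labelled libraries (11.1-fold lower, adjusted p = 2.66e-21) and -3.06 ± 0.14 in the vector-labelled libraries (8.36-fold lower, adjusted p = 7.48e-20). ELK3-labelled minus vector-labelled, it was -0.41 ± 0.18 (adjusted p = 0.0474). That last call was lost under 11 of 14 alternatives, with adjusted p up to 0.479 and a log2 fold change of -0.21 without the first vector-labelled library. TGFB2 lies at chr1:218346235-218444619 on the plus strand (GENCODE 29, GRCh38), where TGFB2-OT1 overlaps it on the same strand. TGFB2-OT1 held 107, 111 and 709 counts summed over the ELK3-labelled, vector-labelled and control libraries, beside 157, 157 and 1046 for TGFB2, and how reads were divided between them is not given in the sources used here.

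TGFB1, the isoform most widely made by carcinoma cells, was low throughout. Its levels were 4.77 and 6.59 CPM in the ELK3-labelled libraries, 4.70 and 7.004 CPM in the vector-labelled libraries and 9.41 and 6.88 CPM in the controls. The plasmid groups overlapped each other, and the vector-labelled pair overlapped the controls. No contrast was called for TGFB1: the log2 fold change was -0.49 ± 0.28 for ELK3-labelled minus control (95% interval -1.06 to 0.08, adjusted p = 0.128), -0.51 ± 0.29 for vector-labelled minus control (-1.11 to 0.09, adjusted p = 0.12) and 0.02 ± 0.29 for ELK3-labelled minus vector-labelled (-0.56 to 0.60, adjusted p = 0.957). The contrast of vector-labelled with control libraries was called without the second control (adjusted p = 0.0466) and without the second vector-labelled library (adjusted p = 0.0435). The gene lies at chr19:41301587-41353911 on the minus strand, overlapped on the other strand by HNRNPUL1, CCDC97 and TMEM91. HNRNPUL1 held 5566, 3691 and 4272 counts in the ELK3-labelled, vector-labelled and control pairs, beside 92, 67 and 77 for TGFB1. In the same order CCDC97 held 326, 164 and 129 counts and TMEM91 113, 421 and 164. Whether counting used strand is not stated, so reads of TGFB1 and these neighbours may not be separable.

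Of 10 further ligand genes tested, 5 were called higher and 2 lower in vector-labelled against control libraries, 2 higher and 4 lower in ELK3-labelled against vector-labelled libraries, and 4 higher and 2 lower in ELK3-labelled against control libraries. The shares of all genes tested in these contrasts were 37.0% higher and 35.3% lower, 30.0% and 29.6%, and 31.8% and 30.8%, and with 10 genes the counts are read no further. INHBB, a beta subunit of activin and inhibin, averaged 40.7 ± 2.77 CPM in the ELK3-labelled libraries, 12.3 ± 3.31 CPM in the vector-labelled libraries and 4.43 ± 2.31 CPM in the controls (SD, n = 2 each). It was called higher in the ELK3-labelled than in the vector-labelled libraries (log2 fold change 1.68 ± 0.18, adjusted p = 8.12e-10), and higher in both plasmid groups than in the controls. INHBA, the other main activin subunit gene, ran the opposite way, with 2.39 ± 1.13, 6.91 ± 0.42 and 13.1 ± 1.24 CPM in the ELK3-labelled, vector-labelled and control libraries. Its log2 fold change was -1.44 ± 0.32 for ELK3-labelled minus vector-labelled (adjusted p = 0.000198). TGFB3, the remaining TGF-beta isoform, had 4.38 ± 1.92, 4.43 ± 0.242 and 6.68 ± 0.318 CPM in that order of groups and was called in no contrast. Without the second ELK3-labelled library, TGFB3 was called lower in ELK3-labelled against control libraries (log2 fold change -1.14, adjusted p = 0.0203, against -0.55 with it).

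Next are proteins linked to latent TGF-beta. THBS1 (thrombospondin 1), a matrix glycoprotein able to activate latent TGF-beta, had 3.82 and 4.25 CPM in the ELK3-labelled libraries, 6.61 and 4.20 CPM in the vector-labelled libraries and 92.9 and 89.0 CPM in the controls. The controls stood apart, and the plasmid groups overlapped each other. Its log2 fold change was -4.47 ± 0.17 for ELK3-labelled minus control (22.2-fold lower, adjusted p = 1.55e-21) and -4.03 ± 0.17 for vector-labelled minus control (16.3-fold lower, adjusted p = 2.71e-20). Between the plasmid groups, at -0.45 ± 0.26 (95% interval -0.99 to 0.09, adjusted p = 0.144), it was not called, although it was called without the second vector-labelled library (-0.69, adjusted p = 0.0468). THBS1 lies at chr15:39581079-39599466 on the plus strand. FSIP1, which overlaps it on the other strand, held 28, 13 and 10 counts in the ELK3-labelled, vector-labelled and control pairs, so its counts were highest where those of THBS1 were low.

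LTBP2, a matrix protein of the latent TGF-beta binding family that itself does not bind latent TGF-beta, differed in every contrast. It was measured at 4.45 and 3.93 CPM in the ELK3-labelled libraries, 7.34 and 7.40 CPM in the vector-labelled libraries and 16.9 and 12.9 CPM in the controls. No group overlapped another, and the ELK3-labelled pair was lowest. The log2 fold changes were -1.84 ± 0.25 for ELK3-labelled minus control (adjusted p = 8.56e-08), -1.02 ± 0.24 for vector-labelled minus control (adjusted p = 0.000286) and -0.82 ± 0.27 for ELK3-labelled minus vector-labelled (adjusted p = 0.00933). The last call was lost with DESeq2 (adjusted p = 0.0562) and without the second ELK3-labelled library (adjusted p = 0.0836). The gene lies at chr14:74498170-74612378 on the minus strand.

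Of 15 further genes of latency and activation tested, 6 were called higher and 7 lower in vector-labelled against control libraries, 3 and 2 in ELK3-labelled against vector-labelled libraries, and 4 and 7 in ELK3-labelled against control libraries. Beside 37.0% and 35.3%, 30.0% and 29.6%, and 31.8% and 30.8% of all genes, no count is read as a result about the list. LTBP1 (17.8 ± 0.0366, 17.3 ± 3.03 and 15.3 ± 3.30 CPM in ELK3-labelled, vector-labelled and control libraries) was called in no contrast. LTBP3, which also binds latent TGF-beta, had 122 ± 7.01, 147 ± 26.2 and 104 ± 11.3 CPM in that order. It was called higher in vector-labelled than control libraries (log2 fold change 0.49 ± 0.11, adjusted p = 0.000132), a value of 0.29 without the second vector-labelled library. LTBP3 was called lower in ELK3-labelled than vector-labelled libraries (-0.26 ± 0.10, adjusted p = 0.0292), a call lost under 5 of 14 alternatives, with -0.06 without the second vector-labelled library. Its difference between ELK3-labelled and control libraries (0.23 ± 0.11, adjusted p = 0.0558) was called under 7 of 14. LTBP4, at 11.51 ± 3.96, 9.52 ± 0.451 and 22.4 ± 10.1 CPM, was called lower in both plasmid groups, and its ELK3-labelled call was lost without the first control library (log2 fold change -0.45, adjusted p = 0.124).

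Integrins of the alpha-V family pull TGF-beta out of its latent complex. ITGAV, their alpha subunit, had 26.9 ± 1.44 CPM in ELK3-labelled, 19.4 ± 0.232 CPM in vector-labelled and 45.0 ± 4.19 CPM in control libraries. It was called lower in both plasmid groups than in the controls (log2 fold changes -0.73 ± 0.13 and -1.21 ± 0.15), and higher in ELK3-labelled than vector-labelled libraries (0.48 ± 0.15, adjusted p = 0.00553), a call lost without the second ELK3-labelled library (adjusted p = 0.0564). ITGB8, a beta partner in activation, averaged 6.19 ± 2.23 and 5.92 ± 0.685 CPM in the ELK3-labelled and vector-labelled libraries and 0.953 ± 0.131 CPM in the controls, and was called higher in both plasmid groups (log2 fold changes 2.71 ± 0.45 and 2.595 ± 0.47). ITGB6, the other main activating partner, had 0 counts in all 4 plasmid libraries and 3 counts over the controls, and was not tested. FURIN, the protease that cleaves the TGF-beta precursor, had 70.5 ± 5.25, 72.1 ± 1.74 and 119 ± 3.55 CPM in ELK3-labelled, vector-labelled and control libraries and was lower in both plasmid groups than in the controls (log2 fold changes -0.75 ± 0.10 and -0.73 ± 0.10).

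The 3 stretches of sequence below are the 250 bases before the first RefSeq start (GRCh38.p14) of the 2 genes that were lowest against the controls in both plasmid groups and of the one receptor that was highest in the ELK3-labelled libraries. Capitals mark CAGAC, a core of SMAD-binding elements, and GGAATG, the core bound by TEAD factors, or its reverse complement.
THBS1 promoter, chr15:39580829-39581078, plus strand: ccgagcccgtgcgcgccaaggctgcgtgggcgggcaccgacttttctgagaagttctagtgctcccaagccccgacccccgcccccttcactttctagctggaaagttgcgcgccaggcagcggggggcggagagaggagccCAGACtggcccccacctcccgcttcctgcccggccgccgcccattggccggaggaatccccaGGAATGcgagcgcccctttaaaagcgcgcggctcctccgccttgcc
TGFB2 promoter, chr1:218345086-218345335, plus strand: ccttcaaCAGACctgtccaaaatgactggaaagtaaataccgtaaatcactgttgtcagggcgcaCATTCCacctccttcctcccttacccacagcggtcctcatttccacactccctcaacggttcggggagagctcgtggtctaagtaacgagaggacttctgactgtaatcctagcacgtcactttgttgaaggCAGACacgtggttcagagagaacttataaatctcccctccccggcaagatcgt
TGFBR3 promoter, chr1:91886152-91886401, minus strand: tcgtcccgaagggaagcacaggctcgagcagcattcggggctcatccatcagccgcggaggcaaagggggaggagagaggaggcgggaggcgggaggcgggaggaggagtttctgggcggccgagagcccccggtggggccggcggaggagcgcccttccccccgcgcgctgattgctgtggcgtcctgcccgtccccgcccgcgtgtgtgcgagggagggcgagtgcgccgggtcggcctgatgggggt
The THBS1 stretch held CAGAC from base -108 and GGAATG from base -46, counted back from the start. The TGFB2 stretch held CAGAC from bases -243 and -53 and GGAATG, on the other strand, from base -185, and the TGFBR3 stretch had no match. These stretches were picked by expression and do not stand for the other genes. At their first starts, TGFBR2, SMAD3, TGFBI and LTBP2, also called lower in both contrasts with the controls, held neither CAGAC nor GGAATG. TGFBR1, called lower too, held CAGAC at its first start. SMAD7, called higher in the ELK3-labelled libraries, held CAGAC from bases -217 and -128 of its first start. The RefSeq starts need not match the GENCODE 29 positions. The TGFBR3 stretch lies inside the GENCODE 29 span of the gene (chr1:91680343-91906335), and the bases upstream of that span were not searched. The TGFB2 stretch ends before the GENCODE 29 start at base 218346235. All 10 genes matched the RefSeq table, with 24 starts between them. Both strands were searched for 5 motifs, which can overlap: the CArG box of SRF, CCGGAA of ETS factors, TGANTCA of AP-1, CAGAC and GGAATG. At least 1 start of 1, 2, 1, 5 and 3 of the 10 genes held them, in that order. Over starts, the counts were 1, 2, 1, 10 and 3 of 24, beside 1.16%, 14.5%, 6.57%, 38.0% and 11.9% of 35116 such stretches of all genes. TGFBR1 gave 8 of the 24 starts, and some of its stretches overlap, so a site can be counted more than once. No share per gene was computed for the counts over genes. A match describes the letters in the window and does not locate a bound site.

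Next are the receptors. TGFBR2, the type II receptor that binds TGF-beta first, had 10.7 and 11.2 CPM in the ELK3-labelled libraries, 12.3 and 10.0 CPM in the vector-labelled libraries and 66.1 and 68.8 CPM in the controls. The plasmid groups overlapped each other and lay far below both controls. Its log2 fold change was -2.62 ± 0.15 for ELK3-labelled minus control (6.15-fold lower, adjusted p = 7.1e-17) and -2.57 ± 0.15 for vector-labelled minus control (5.96-fold lower, adjusted p = 2.31e-16). Between the plasmid groups it was -0.05 ± 0.19 (95% interval -0.43 to 0.33, adjusted p = 0.845). The gene lies at chr3:30606502-30694142 on the plus strand.

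TGFBR1, the type I receptor kinase that the type II receptor phosphorylates, varied little by comparison. It had 22.4 and 24.5 CPM in the ELK3-labelled libraries, 21.2 and 22.0 CPM in the vector-labelled libraries and 31.0 and 29.03 CPM in the controls. Both controls were highest, and the plasmid pairs did not overlap but lay close. The log2 fold change was -0.48 ± 0.15 for vector-labelled minus control (adjusted p = 0.00627) and 0.13 ± 0.15 for ELK3-labelled minus vector-labelled (95% interval -0.18 to 0.43, adjusted p = 0.474). For ELK3-labelled minus control it was -0.35 ± 0.15 (adjusted p = 0.0381), a call lost under 8 of 14 alternatives, with a log2 fold change of -0.19 and adjusted p = 0.267 on library totals without scaling. Leaving out either control (adjusted p = 0.165 and 0.0545) or either ELK3-labelled library (adjusted p = 0.164 and 0.0624) lost it too. Its position is chr9:99104038-99154192 on the plus strand.

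TGFBR3 encodes betaglycan, the co-receptor that presents TGF-beta, TGF-beta 2 in particular, to TGFBR2, and lies at chr1:91680343-91906335 on the minus strand. It had 57.1 and 57.6 CPM in the ELK3-labelled libraries, 37.0 and 37.8 CPM in the vector-labelled libraries and 39.3 and 36.3 CPM in the controls. Both ELK3-labelled libraries stood above the other 4, whose groups overlapped. The log2 fold change was 0.62 ± 0.11 for ELK3-labelled minus vector-labelled (adjusted p = 1.83e-05) and 0.60 ± 0.12 for ELK3-labelled minus control (1.52-fold higher, adjusted p = 3.76e-05). For vector-labelled minus control it was -0.02 ± 0.13 (95% interval -0.27 to 0.24, adjusted p = 0.908).

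Of 9 further receptor and co-receptor genes tested, 3 were called higher and 2 lower in vector-labelled against control libraries, 5 and 1 in ELK3-labelled against vector-labelled libraries, and 5 and 2 in ELK3-labelled against control libraries. All genes tested gave 37.0% and 35.3%, 30.0% and 29.6%, and 31.8% and 30.8%. ACVR1B, the type I receptor for activin, had 39.6 ± 1.76, 31.8 ± 3.42 and 18.5 ± 6.06 CPM in ELK3-labelled, vector-labelled and control libraries. It was called higher in both plasmid groups than in the controls (log2 fold changes 1.097 ± 0.16 and 0.77 ± 0.17), the second being 0.45 without the first control library. Between ELK3-labelled and vector-labelled libraries ACVR1B was not called (0.32 ± 0.14, adjusted p = 0.0544), but it was called under 7 of 14 alternatives. ACVR2A, an activin type II receptor, had 10.5 ± 0.735, 6.99 ± 1.96 and 9.99 ± 2.30 CPM and was called only in ELK3-labelled against vector-labelled libraries (0.57 ± 0.24, adjusted p = 0.0407). That call was lost under 5 of 14 alternatives, with adjusted p = 0.295 and a log2 fold change of 0.35 without the second vector-labelled library. Without the first control or the first vector-labelled library, ACVR2A was called lower in vector-labelled against control libraries (-0.72 and -0.83, adjusted p = 0.0279 and 0.031). Endoglin (ENG), a co-receptor typical of endothelium, was at 1.70 ± 0.297, 2.58 ± 0.319 and 1.38 ± 0.123 CPM and was called in no contrast.

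Among the SMADs, SMAD3, which carries the TGF-beta signal to DNA, had 46.9 and 45.4 CPM in the ELK3-labelled libraries, 36.6 and 40.0 CPM in the vector-labelled libraries and 194 and 183 CPM in the controls. The controls stood far above the others, and the ELK3-labelled pair lay above the vector-labelled pair without overlap. The log2 fold change was -2.03 ± 0.10 for ELK3-labelled minus control (4.09-fold lower, adjusted p = 7.51e-19) and -2.31 ± 0.10 for vector-labelled minus control (4.95-fold lower, adjusted p = 7.71e-20). ELK3-labelled minus vector-labelled, it was 0.27 ± 0.11 (adjusted p = 0.0341), a call lost with DESeq2 (adjusted p = 0.11), with a filter of 10 CPM (0.0995) and without the first vector-labelled (0.236), the first ELK3-labelled (0.107) or the second ELK3-labelled library (0.0713). SMAD3 lies at chr15:67063763-67195195 on the plus strand.

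SMAD7, the inhibitory SMAD that blocks the type I receptor and is itself induced by TGF-beta, lies at chr18:48919853-48952052 on the minus strand. It had 13.4 and 10.95 CPM in the ELK3-labelled libraries, 5.73 and 6.60 CPM in the vector-labelled libraries and 4.601 and 5.81 CPM in the controls. Both ELK3-labelled libraries were highest, and the other groups overlapped. The log2 fold change was 1.21 ± 0.26 for ELK3-labelled minus control (2.31-fold higher, adjusted p = 0.000129) and 0.97 ± 0.24 for ELK3-labelled minus vector-labelled (adjusted p = 0.000683). For vector-labelled minus control it was 0.23 ± 0.30 (95% interval -0.37 to 0.84, adjusted p = 0.49).

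Of 15 further genes of the SMAD and signal relay list tested, 7 were called higher and 4 lower in vector-labelled against control libraries, 7 and 2 in ELK3-labelled against vector-labelled libraries, and 12 and 1 in ELK3-labelled against control libraries, with medians on the log2 scale of 0.25, 0.18 and 0.70. Over all genes tested the shares were 37.0% and 35.3%, 30.0% and 29.6%, and 31.8% and 30.8%, with medians of 0.05, -0.02 and 0.02. SMAD2, the other TGF-beta SMAD, had 41.9 ± 3.09, 27.3 ± 0.659 and 67.6 ± 3.17 CPM in ELK3-labelled, vector-labelled and control libraries. Like SMAD3 it was called lower in both plasmid groups than in the controls (log2 fold changes -0.68 ± 0.11 and -1.31 ± 0.12), and it was higher in ELK3-labelled than vector-labelled libraries (0.63 ± 0.12, adjusted p = 5.41e-05). SMAD4, the shared partner, had 28.8 ± 2.72, 25.4 ± 3.71 and 35.2 ± 3.39 CPM. It was called lower only in vector-labelled against control libraries (-0.46 ± 0.15, adjusted p = 0.0074), a call lost without the second control (0.0588) or the second vector-labelled library (0.0807) and on library totals (0.056). ZFYVE9 (SARA), the anchor that brings SMAD2 and SMAD3 to the receptor, had 49.9 ± 1.59, 39.8 ± 0.848 and 37.7 ± 4.19 CPM. It was called higher in ELK3-labelled than control libraries (0.40 ± 0.12, adjusted p = 0.00446), a call lost without the first control (adjusted p = 0.102). Against the vector-labelled libraries (0.33 ± 0.12, adjusted p = 0.0168) the call was lost with DESeq2 (adjusted p = 0.102) and without the first vector-labelled (0.0929) or first ELK3-labelled library (0.0755).

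Inhibitors and turnover factors other than SMAD7 form the next list. Since it mixes the 2 kinds, its counts are not counts of inhibitors alone. Of 24 tested, 16 were called higher and 2 lower in ELK3-labelled against vector-labelled libraries, with a median log2 fold change of 0.54, beside 30.0% and 29.6% of all genes. Against the controls, 2 were called higher and 13 lower in vector-labelled libraries, and 9 higher and 9 lower in ELK3-labelled libraries, where all genes gave 37.0% and 35.3%, and 31.8% and 30.8%. SKI and SKIL, repressors that bind SMADs, had 113 ± 1.36, 76.2 ± 0.103 and 81.5 ± 9.19 CPM, and 73.9 ± 4.47, 48.8 ± 1.15 and 44.6 ± 3.88 CPM, in ELK3-labelled, vector-labelled and control libraries. Like TGFBR3 and SMAD7, both were called higher in ELK3-labelled than vector-labelled libraries (0.57 ± 0.10 and 0.60 ± 0.11) and were not called in vector-labelled against control libraries. On library totals without scaling, SKIL was called higher in vector-labelled against control libraries (0.27, adjusted p = 0.0415). BAMBI, a decoy receptor without a kinase, had 13.5 ± 1.17, 6.37 ± 2.21 and 3.61 ± 0.671 CPM and was called higher in ELK3-labelled than vector-labelled libraries (1.03 ± 0.24, adjusted p = 0.000374). Its call in vector-labelled against control libraries (0.86 ± 0.33, adjusted p = 0.0197) was lost with DESeq2 (0.0812) and without the first control (0.124) or the first vector-labelled library (0.408).

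PMEPA1, a TGF-beta-induced protein that sequesters SMADs, had 30.7 ± 2.75, 12.9 ± 1.00 and 73.8 ± 0.645 CPM. It was called higher in ELK3-labelled than vector-labelled libraries (log2 fold change 1.25 ± 0.15, adjusted p = 1.24e-08) and lower in both groups than in the controls (-1.28 ± 0.12 and -2.52 ± 0.14). SMURF2, a ubiquitin ligase that works with SMAD7 on the receptor, had 23.5 ± 4.61, 18.8 ± 0.25 and 94.8 ± 2.03 CPM and was lower than the controls in both groups (-2.04 ± 0.12 and -2.33 ± 0.13). Between the plasmid groups SMURF2 was not called (0.29 ± 0.15, adjusted p = 0.0905), but it was called higher in ELK3-labelled libraries with no filter (0.35, adjusted p = 0.0418). Without the second ELK3-labelled library the log2 fold change was 0.51. FST, follistatin, which traps activin, had 45.5 ± 0.695, 57.6 ± 3.99 and 144 ± 9.58 CPM. It was called lower in both plasmid groups than in the controls (-1.66 ± 0.10 and -1.33 ± 0.10), and lower in ELK3-labelled than vector-labelled libraries (-0.34 ± 0.11, adjusted p = 0.00716), a call lost without the second vector-labelled (0.0975) or second ELK3-labelled library (0.0603).

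**Figure D3:**
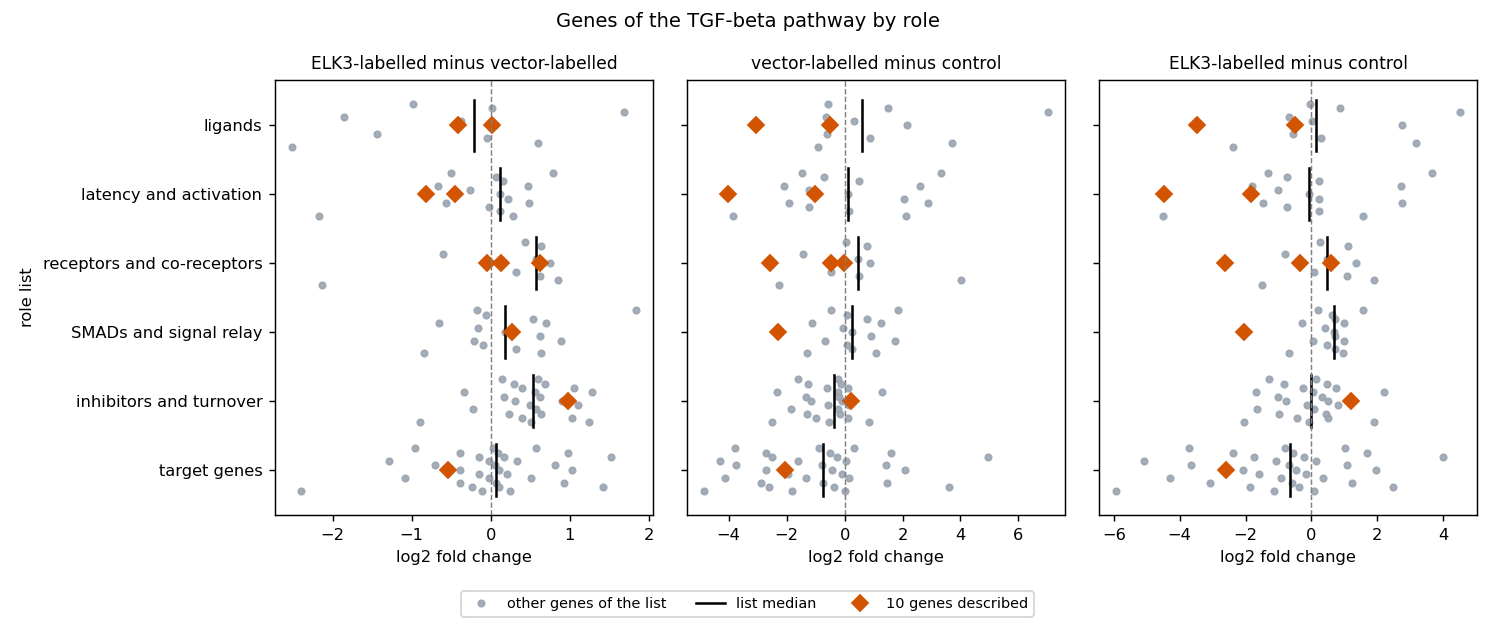
Log2 fold changes (horizontal axes) of the tested genes of 6 role lists in the 3 contrasts; grey points are the other genes of a list, the black line their median and diamonds the 10 genes described. In the left panel the mixed list of inhibitors and turnover factors centres right of 0 (median 0.54). In the middle panel the target list centres left of 0 (median -0.76). The ligand farthest right there is LEFTY2, whose controls are at 0 counts, so that its fitted value is no bound.

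The target genes come last. TGFBI, a secreted matrix protein named for its induction by TGF-beta, had 14.9 and 13.7 CPM in the ELK3-labelled libraries, 18.9 and 23.0 CPM in the vector-labelled libraries and 83.2 and 88.4 CPM in the controls. The groups did not overlap, and the ELK3-labelled pair was lowest. The log2 fold change was -2.59 ± 0.13 for ELK3-labelled minus control (6.01-fold lower, adjusted p = 5.35e-18) and -2.04 ± 0.13 for vector-labelled minus control (4.13-fold lower, adjusted p = 1.44e-15). For ELK3-labelled minus vector-labelled it was -0.54 ± 0.16 (adjusted p = 0.00324), a call lost without the second vector-labelled library (-0.40, adjusted p = 0.0716). TGFBI lies at chr5:136028895-136063818 on the plus strand.

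Of 32 other target genes tested, 7 were called higher and 19 lower in vector-labelled against control libraries, 8 and 8 in ELK3-labelled against vector-labelled libraries, and 7 and 18 in ELK3-labelled against control libraries. The medians on the log2 scale were -0.76, 0.06 and -0.64. All genes tested gave 37.0% and 35.3%, 30.0% and 29.6%, and 31.8% and 30.8%, with medians of 0.05, -0.02 and 0.02, so the counts between the plasmid groups were not above the background. CTGF, a matricellular growth factor, had 55.8 ± 5.03, 31.2 ± 4.497 and 234 ± 2.74 CPM in ELK3-labelled, vector-labelled and control libraries. It was lower in both plasmid groups than in the controls (-2.07 ± 0.10 and -2.89 ± 0.11) but higher in ELK3-labelled than vector-labelled libraries (0.82 ± 0.12, adjusted p = 3.05e-07), as SMAD3 and PMEPA1 were.

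TAGLN, the smooth-muscle actin-binding protein transgelin, had 5.73 ± 1.36, 5.58 ± 1.45 and 21.4 ± 1.32 CPM and was called lower in both plasmid groups than in the controls (-1.86 ± 0.22 and -1.97 ± 0.24). FN1, fibronectin, had 223 ± 8.89, 248 ± 17.8 and 335 ± 4.801 CPM, with smaller differences from the controls (-0.59 ± 0.08 and -0.43 ± 0.08), both called. Between the plasmid groups FN1 was not called (-0.15 ± 0.08), except with a filter of 10 CPM (-0.22, adjusted p = 0.0226). JUNB, an AP-1 subunit induced early by TGF-beta, had 119 ± 0.206, 105 ± 8.10 and 134 ± 8.15 CPM. It was called only in vector-labelled against control libraries (-0.35 ± 0.09, adjusted p = 0.00132), at -0.22 on library totals, and with no filter also between the plasmid groups (0.23, adjusted p = 0.0366). KLF10, an early TGF-beta-induced zinc finger protein, had 19.5 ± 1.42, 18.7 ± 4.93 and 22.6 ± 1.20 CPM and was called in no contrast. Without the first vector-labelled library, KLF10 was called lower in vector-labelled against control libraries (-0.57, adjusted p = 0.0251, against -0.25 with it).

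**Figure D4:**
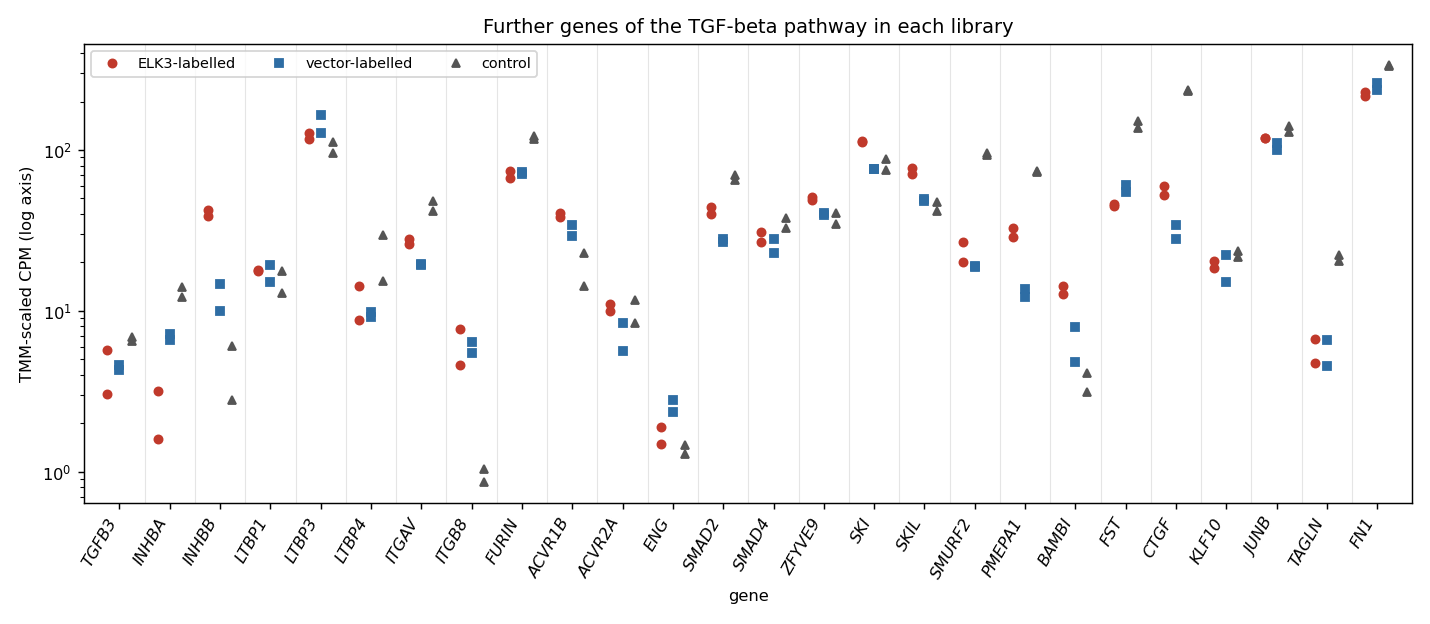
Level in TMM-scaled CPM (vertical axis, logarithmic) of 26 further pathway genes in each of the 6 libraries, coloured by ELK3-labelled, vector-labelled and control group; each point is a library. CTGF, at 55.8 and 31.2 CPM in the ELK3-labelled and vector-labelled libraries, stands below the controls at 234 CPM, while INHBB and ITGB8 run the other way.

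Over the 6 libraries the 10 genes did not share a single pattern. TGFB2, TGFBI and LTBP2 were called lower in all 3 contrasts, and SMAD3 was called in all 3 with the opposite sign between the plasmid groups. The calls between the plasmid groups were lost under 11 (TGFB2), 1 (TGFBI), 2 (LTBP2) and 5 (SMAD3) of 14 alternatives. The 3 contrasts share their libraries, so they are not separate findings. Ordered by group mean, TGFBR3 alone ran opposite to ELK3 itself, with its highest mean in the ELK3-labelled and its lowest in the vector-labelled libraries, although its vector-labelled and control pairs overlapped. None of the 10 followed the order of ELK3. By the root mean square difference of centred log2 CPM over the 6 libraries, the closest pairs within the 10 were TGFB1 with TGFBR1 (0.207), TGFBR2 with SMAD3 (0.268) and TGFBR3 with SMAD7 (0.284). No background over pairs of all genes was computed, so these pairs are not read as groups. Among all genes tested, the 3 nearest by this measure to SMAD3, taken for its highest mean over the 6 libraries (TGFBR3 was higher in the ELK3-labelled pair), were CDC42EP3 (0.068), PKP3 (0.0714) and CLIC1 (0.0745). CDC42EP3, an effector of the small GTPase CDC42, averaged 31.2, 26.2 and 138 CPM in the ELK3-labelled, vector-labelled and control libraries. PKP3, the desmosomal protein plakophilin 3, averaged 2.97, 2.50 and 13.8 CPM, and CLIC1, a chloride intracellular channel protein, 93.3, 81.2 and 391 CPM.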

How the data were processed

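The authors deposited raw counts of reads per gene symbol, with no scaling. The libraries were made with a LEXOGEN QuantSeq kit, which reads transcript ends, per the labels' protocols. Bowtie2, edgeR and hg19 are named, without versions, per the submitters' processing notes; the counter, annotation and strand setting are not given in the sources used here. Lines that shared a symbol (286 symbols) were summed. The 10 genes and all lists were chosen with earlier results of these data known.

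Genes passing filterByExpr were fitted in R 4.3.3 with edgeR 4.0.16 (TMM, robust quasi-likelihood, 1 mean per group, 6 libraries, 3 residual degrees of freedom), and the script was tested on simulated data. The text names all 10 genes, a set panel of 28 (1 of them is not reported here) and the 3 genes nearest to SMAD3. Role lists are given as counts. Every fit was repeated with DESeq2 1.42.0, limma-voom 3.58.1, a replicate block, other scaling (DESeq2 size factors or library totals), other filters (none, or 10 CPM in 2 libraries), a pair of groups alone (4 libraries) and leaving out each library. Floors cover counting error only. Each SE was taken from the fitted log2 fold change and its F statistic, so SEs and intervals also include the fitted spread between libraries. Positions use GRCh38, not the hg19 of the alignment.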

Additional observations from a re-analysis of the deposited data

How the results depend on the processing

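Across 14 alternatives and 3 contrasts, the 10 genes gave 417 values: 378 kept direction and side of the threshold, 27 lost the call, 3 gained it and 9, none of them called, changed sign. The count of the 10 called in ELK3-labelled against vector-labelled libraries was 6, with 3 under DESeq2 and 3 to 6 with a library left out; for the other contrasts it stayed within 1.5 times. Library totals without scaling moved the median log2 fold change of all genes to 0.18 in both contrasts with controls, and the calls of ELK3-labelled against control libraries to 5911 higher and 3763 lower, against 4891 and 4742 with TMM.

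The replicate numbers are labels only (correlations of same-numbered deviations -0.0556, -0.000659 and 0.0332). With a replicate block, 7, 5 and 9 of the 10 were called in vector-labelled minus control, ELK3-labelled minus vector-labelled and ELK3-labelled minus control, and TGFB2 lost its call between the plasmid groups (adjusted p = 0.053); TGFB1 changed to -0.0033 and TGFB3 to -0.0030 in ELK3-labelled minus vector-labelled.

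Other sign changes were of log2 fold changes that were not called. In vector-labelled minus control, library totals gave 0.117 for TGFBR3 and 0.0346 for SKI, and the 10 CPM filter 0.0834 and 0.0016. In ELK3-labelled minus vector-labelled, DESeq2 gave -0.0179 for TGFB1, no filter 0.0141 for TGFBR2 and 0.0321 for FURIN, and the 10 CPM filter -0.0028 for LTBP1 and -0.0381 for KLF10. With a library left out, vector-labelled minus control ranged from -0.0953 to 0.0244 for TGFBR3, -0.064 to 0.373 for LTBP1, -0.0477 to 0.173 for ZFYVE9 and -0.23 to 0.0049 for SKI. ELK3-labelled minus vector-labelled ranged from -0.26 to 0.31 for TGFB1, -0.16 to 0.14 for TGFBR2, -0.53 to 0.39 for TGFB3, -0.11 to 0.25 for LTBP1, -0.12 to 0.59 for LTBP4, -0.34 to 0.41 for ITGB8, -0.103 to 0.0491 for FURIN, -0.18 to 0.36 for KLF10 and -0.18 to 0.38 for TAGLN. ELK3-labelled minus control ranged from -0.13 to 0.33 for ACVR2A. The cause of these changes was not tested. TGFB1 had no value under the 10 CPM filter. With 2 libraries a group, a left-out library leaves a lone one assumed to vary like the others, and TGFB1, SMAD7 and LTBP2, with the fewest counts of the 10, had the widest SEs against the controls.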
